A study of Papio anubis with 767 samples.

Results

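Gene expression in the baboon thalamus was compared with that in 2 areas of the cerebral cortex by sequencing polyA-selected RNA from bulk tissue. The tissue set consisted of the 12 libraries whose tissue label is Thalamus, out of 767 libraries of 64 tissues in the series. Each of these was set against 2 cortex libraries collected at the same time, 1 labelled Prefontal cortex (prefrontal cortex here) and 1 labelled Visual cortex. The animals were 12 male baboons (organism Papio anubis, called Papio anubis hamadryas in the protocol), 5 to 6 years old and weighing 7 to 11 kg, and the labels give no genetic change or treatment in any group. Lights were on for 12 h of each day, and feeding took place at 9:00 and 15:00. One animal was sampled every 2 h, at zeitgeber times ZT0 (lights on) to ZT22, and brain structures were punched out of chilled sections after the animal had been perfused. A thalamus library and both cortex libraries of one time therefore come from the same animal by the labels, which gave 12 thalamus and cortex pairs, and time of day and animal cannot be told apart. Which thalamic nuclei or cortical layers a punch held is not stated in the labels.

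The thalamus relays sensory, motor and limbic signals to the cortex. Its relay neurons release glutamate and load their vesicles mainly with the transporter VGLUT2 (gene SLC17A6), whereas most cortical pyramidal cells use VGLUT1 (SLC17A7). Relay neurons fire in bursts through T-type calcium channels, and their inhibition comes mostly from the reticular nucleus and, in primates, from local interneurons. The 2 structures also have separate origins, the thalamus arising from the diencephalon and the cortex from the telencephalon, and many of the transcription factors that shape them stay on in the adult.

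Expression is given as the authors' FPKM, a level per gene length that can be compared between genes. The thalamus libraries held 4.12 to 13.7 M reads (M, 1e+06) assigned to genes (median 7.28 M), against 4.74 to 9.18 M in prefrontal (median 7.41 M) and 7.30 to 16.7 M in visual cortex (median 12.4 M). Reads of the 13 genes encoded by the mitochondrial genome made up 51.7% to 83.8% of those reads in thalamus (median 70.8%), 43.9% to 69.4% in prefrontal and 56.0% to 74.5% in visual cortex, so that 1.15 to 4.16 M reads of thalamus libraries fell on other genes. Library profiles were compared by the correlation, across genes, of log2(FPKM + 0.5) with the mean of the other libraries of each region. The thalamus library of ZT04 stood apart, with r = 0.894 to the other 11 thalamus libraries and r = 0.917 to the 12 libraries of the pons. The other 11 thalamus libraries were nearest to their own region. The prefrontal library of ZT00 was nearer to visual cortex (r = 0.952) than to its own label (r = 0.877), and the visual cortex library of ZT02 nearer to prefrontal cortex (r = 0.953) than to its own (r = 0.923). The labelled tissue was checked against 4 relay neuron markers with a row (SLC17A6 among them), whose summed level was 94.5 to 575 FPKM in thalamus, 12.6 to 26.7 in prefrontal and 36.1 to 97.0 in visual cortex, with the lowest thalamus sum at ZT04. Of these markers SLC17A6, LEF1 and NTNG1 were higher in thalamus and PRKCD was lower. For several genes whose level stood apart at ZT04, the difference is also given without that pair. Rhythm fits of single genes include ZT04. Unless another test is named, p-values are from limma's moderated test on the 12 paired differences, adjusted by Benjamini-Hochberg over all rows tested. They set the mean difference against the spread of these 12 pairs, in which animal and time of day cannot be told apart. Differences are given on the log2(FPKM + 0.5) scale, thalamus minus cortex, with their standard error, and understate the ratio for genes near 0.

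A row was called different when its adjusted p was under 0.05 and its mean difference, thalamus minus the mean of both cortex areas at the same time, was at least 1 in either direction (2-fold). Of 12994 rows tested, 520 were higher in thalamus (4.00%) and 1167 were lower (8.98%), the shares against which the counts of each gene list are read. Rows were tested when their mean was at least 1 FPKM in thalamus or over both cortex areas. A gene near 0 in 1 region entered only through the other, so its direction was largely set by this filter. The list counts and the genes named below include such genes. By adjusted p alone, 2433 were higher and 4200 lower. The median difference of all rows was -0.119, and it moved to -0.021 with median-of-ratios scaling and 0.029 with quantile scaling. The share of calls that were higher in thalamus was 30.8%, and 42.5% with quantile scaling (682 higher and 924 lower). Against prefrontal cortex alone 558 rows were higher and 2408 lower, whereas against visual cortex alone 913 were higher and 830 lower. The 2 comparisons share the thalamus libraries. Called in the same direction against the mean and against each area were 354 higher and 634 lower rows; for called genes outside these, the area without a call is named. Without the ZT04 pair 531 rows were higher and 1255 lower, with 502 and 1147 of them shared with the full set, and without ZT00, ZT02 and ZT04 together 512 were higher and 1346 lower.

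The vesicular glutamate transporters separated the 2 structures in opposite directions. SLC17A6 stood at 76.9 to 326 FPKM in thalamus (median 192), 1.63 to 9.59 in prefrontal (median 5.12) and 22.1 to 71.5 in visual cortex (median 33.1). The groups did not overlap, and the lowest thalamus value was that of ZT04. The difference was 3.69 ± 0.17, adjusted p = 1.07e-10, made up of 5.10 against prefrontal and 2.27 against visual cortex. SLC17A7 had 0.139 to 3.44 FPKM in thalamus (median 1.25) and 263 to 752 in the 24 cortex libraries (median 469), again without overlap. Its difference of -8.09 ± 0.20, adjusted p = 1.19e-13 was the most negative among rows that reached 5 FPKM in cortex and were lower in 12 of 12 pairs against each area. In bulk tissue, fewer cells of a type and less RNA per cell cannot be told apart. SLC17A8, which encodes VGLUT3, averaged 0.0863 FPKM in thalamus and was under the filter of 1 FPKM. As a level only, SLC17A6 averaged 100.2 FPKM in the habenula, which adjoins the thalamus, and 39.8 FPKM in the pons.

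**Figure D1:**
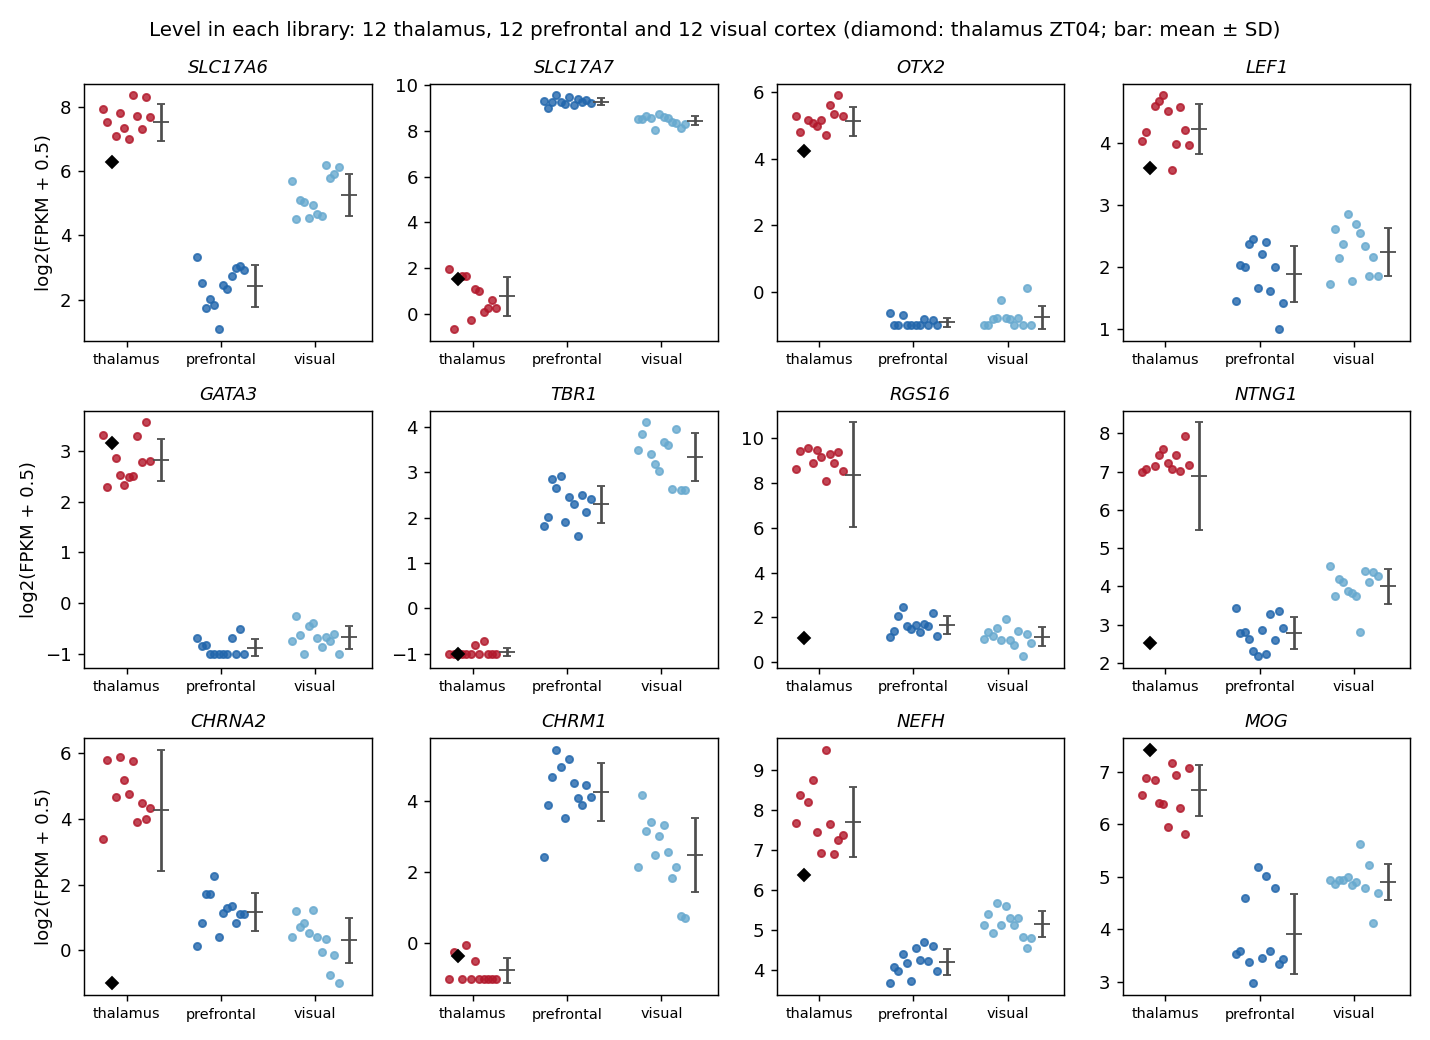
Level of 12 genes in each library on the log2(FPKM + 0.5) axis, for thalamus (left, red), prefrontal cortex (middle, dark blue) and visual cortex (right, light blue); each point is 1 library, the bar beside each group is its mean ± SD (n = 12), and the diamond is the thalamus library of ZT04. SLC17A6, OTX2, LEF1, GATA3, NEFH and MOG lie higher in all thalamus libraries, SLC17A7, TBR1 and CHRM1 lower, and RGS16, NTNG1 and CHRNA2 lie higher in 11 of 12, the exception being ZT04.

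Of the transcription factors of thalamic glutamatergic neurons that were tested, most were higher in thalamus. Of 13 listed factors 12 had a row under their symbol and 8 passed the filter. Of these 6 were higher and 1 was lower, against 4.00% and 8.98% of all rows. Their median difference was 1.58 against -0.119. IRX3, LHX9 and PROX1 passed the filter through thalamus alone, so their direction was largely set by it. LEF1, the nuclear partner of beta-catenin in Wnt signalling, had 11.3 to 26.7 FPKM in thalamus (median 17.8) and 1.499 to 6.75 FPKM in cortex (median 3.73). The groups did not overlap, and the difference was 2.16 ± 0.14, adjusted p = 7.26e-09. IRX3, an Iroquois homeodomain factor of the caudal diencephalon, had 1.90 to 4.25 FPKM in thalamus (median 3.05) and 0 to 1.00 FPKM in cortex (median 0.14), also without overlap (difference 2.33 ± 0.14, adjusted p = 1.9e-09). ZIC4, a zinc finger factor, had 0.357 FPKM at ZT04 and 12.7 to 40.1 FPKM in the other 11 thalamus libraries, against 0.322 to 6.54 in cortex. Its difference was 2.68 ± 0.33, adjusted p = 5.51e-06, and 3.01 ± 0.18 without ZT04. LHX9, a LIM factor expressed by developing thalamic neurons in mouse, was low but present in thalamus at a mean of 1.49 FPKM, against 0.0119 FPKM in prefrontal and 0.0217 in visual cortex (1.79 ± 0.22, adjusted p = 6.98e-06). PROX1 averaged 1.92 FPKM in thalamus and 0.414 FPKM in cortex (1.36 ± 0.16, adjusted p = 3.09e-06). RORA, an orphan nuclear receptor that also acts in the clock, averaged 4.03 FPKM in thalamus, 0.734 in prefrontal and 1.87 in visual cortex and was called against the mean (1.27 ± 0.23, adjusted p = 0.000304) and against prefrontal cortex but not against visual cortex (0.80 ± 0.28), nor without ZT00, ZT02 and ZT04 together (0.985). LHX2 was the member that was lower, with 0.36 to 11.4 FPKM in thalamus (median 3.54) and 24.2 to 57.6 FPKM in cortex (median 32.7) (difference -3.24 ± 0.24, adjusted p = 3.23e-08); in mouse this LIM factor specifies cortical identity and also acts in the developing thalamus. ZIC1 averaged 5.49 FPKM in thalamus, 7.34 in prefrontal and 0.763 in visual cortex, and its difference of 0.40 ± 0.33 did not pass. GBX2, FOXP2, IRX1 and IRX2 were under the filter, at means of 0.857, 0.923, 0.174 and 0.0923 FPKM in thalamus.

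Among factors of thalamic reticular and other inhibitory neurons, 2 of 5 tested members were higher and 1 was lower, out of 9 with a row. Of all rows 4.00% were higher and 8.98% lower. The 2 that were higher, OTX2 and GATA3, passed the filter through thalamus alone. OTX2, a homeodomain factor needed for the formation of forebrain and midbrain in mouse, had 18.3 to 59.4 FPKM in thalamus (median 35.6), while it was between 0 and 0.582 FPKM in cortex and listed at 0 in 13 of 24 cortex libraries. Its difference of 5.96 ± 0.12, adjusted p = 8.76e-15 was the largest among rows that reached 5 FPKM in thalamus and were higher in 12 of 12 pairs against each area. OTX2 is also made by the choroid plexus, the epithelium that secretes cerebrospinal fluid. The summed level of 4 of 5 choroid plexus markers was 2.91 to 134 FPKM in thalamus (median 46.4), 6.57 to 24.0 in prefrontal and 1.29 to 20.002 in visual cortex. Of these markers TTR (3.98 ± 0.40) and FOLR1 (1.91 ± 0.31) were higher in thalamus and KCNJ13 was lower (-1.18 ± 0.40), though not against visual cortex, without ZT14 (-0.95) or ZT18 (-0.98), or by the signed-rank test (adjusted p = 0.0929). OTX2 stood at 40.3 FPKM in the thalamus library with the lowest sum (ZT18, 2.91 FPKM) and at its own highest level, 59.4 FPKM, in the library with the highest sum (ZT20, 134 FPKM). The part of this tissue in the OTX2 level was not tested. GATA3, a zinc finger factor of inhibitory neurons in the mouse diencephalon and midbrain, had 4.44 to 11.4 FPKM in thalamus (median 6.43) and 0 to 0.339 FPKM in cortex (median 0.0761) (3.61 ± 0.15, adjusted p = 2.54e-11), with no overlap. Its relative GATA2 averaged 1.20 FPKM in thalamus, 0.769 in prefrontal and 0.903 in visual cortex (0.35 ± 0.14), below 2-fold. MEIS2 was lower, at 1.91 FPKM in thalamus, 5.71 in prefrontal and 6.88 in visual cortex (-1.77 ± 0.27, adjusted p = 6.73e-05). ESRRB averaged 1.06 FPKM in thalamus, 0.474 in prefrontal and 0.212 in visual cortex (0.92 ± 0.16), also below 2-fold. TAL1, SIX3, ISL1 and ECEL1 were under the filter.

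Of the transcription factors of cortical neurons that were tested, most were lower in thalamus. Of 23 listed factors 20 had a row and 17 passed the filter. Of these 13 were lower and 0 were higher, against 8.98% lower among all rows. The median difference was -2.15. EMX1, NEUROD1, NEUROD2, TBR1 and FEZF2 passed the filter through cortex alone, so their direction was largely set by it. EMX1, NEUROD1 and NEUROD2, factors of cortical progenitors and excitatory neurons, were listed at 0 in every thalamus library, with cortex means of 5.12, 1.397 and 1.19 FPKM; NEUROD2 was not called against visual cortex, where it averaged 0.328 FPKM. TBR1, which specifies deep-layer projection neurons in mouse, had 0 to 0.103 FPKM in thalamus (median 0) and 2.52 to 16.6 FPKM in cortex (median 5.74), without overlap (-3.78 ± 0.13, adjusted p = 4.66e-12). FEZF2, which acts in the same layers in mouse, averaged 0.0151 FPKM in thalamus and 2.67 FPKM in cortex. MEF2C (-2.72 ± 0.10), LMO4 (-3.24 ± 0.11), LMO3 (-3.28 ± 0.23), EMX2 (-2.15 ± 0.12), RORB (-1.90 ± 0.17) and NR4A2 (-1.79 ± 0.14) were lower as well. Of the 4 tested factors without a call, OTX1 was at -0.34 ± 0.12 and ETV1 at 0.83 ± 0.14, and ETV1 passed the adjusted p on the higher side.

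**Figure D2:**
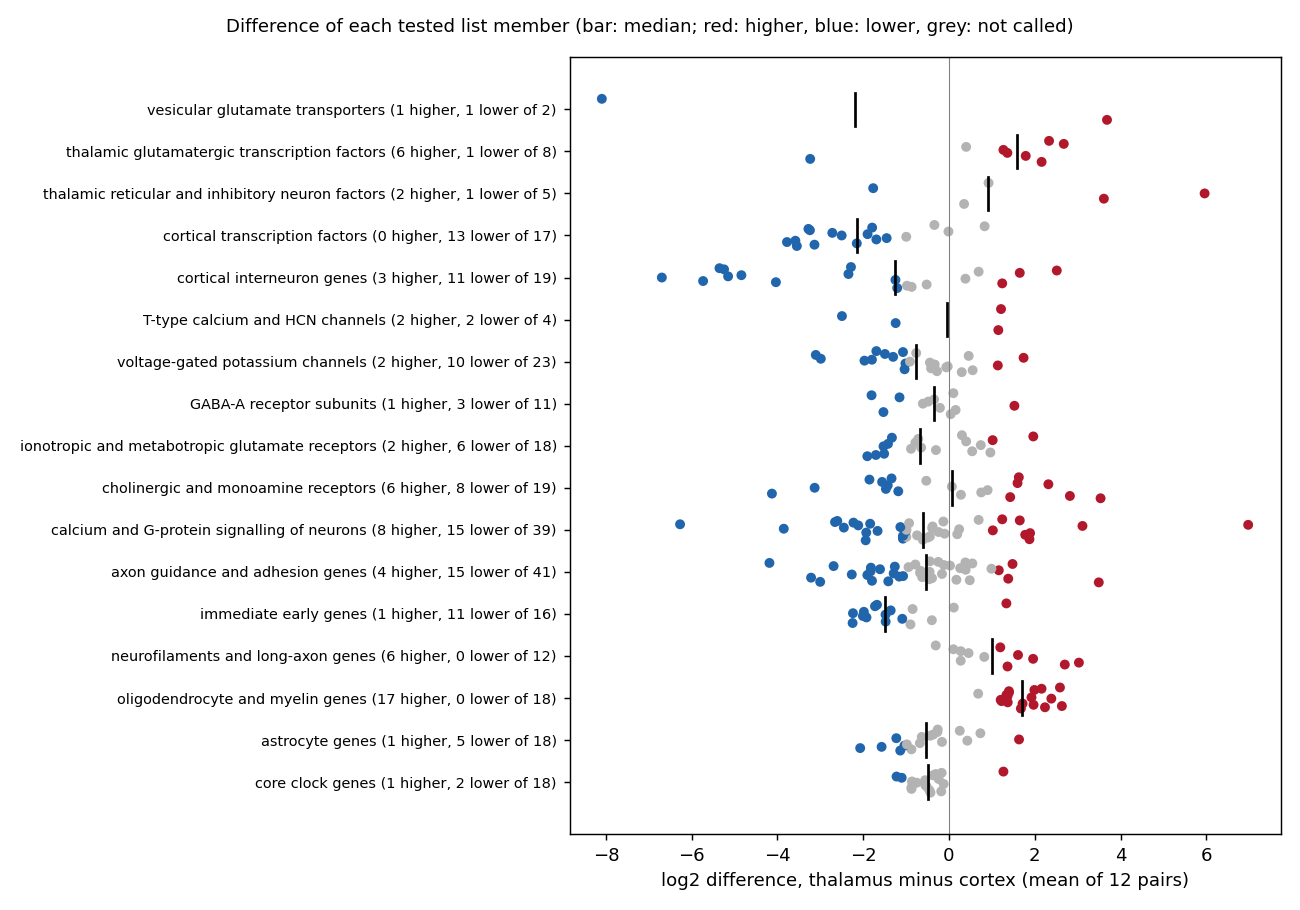
Difference on the log2(FPKM + 0.5) scale, thalamus minus cortex, of each tested member (points) of 17 gene lists (rows); red points were called higher in thalamus, blue ones lower, grey ones neither, and the bar is the list's median. The cortical transcription factors and immediate early genes lie mostly left of 0, the myelin genes right of it, and most other lists have members on both sides.

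Genes listed for inhibitory neurons of the cortex were mostly lower in thalamus, and a few listed peptides and calcium-binding proteins were higher. GAD1, which makes GABA, had 12.6 to 34.7 FPKM in thalamus (median 24.6) and 31.6 to 71.5 FPKM in cortex (median 54.2) (-1.21 ± 0.13, adjusted p = 2.13e-06), overlapping but lower in 12 of 12 pairs. GAD2, the second such enzyme, passed the adjusted p but stayed below 2-fold (-0.87 ± 0.10). The summed level of 3 GABAergic markers was 46.8 to 89.5 FPKM in thalamus (the highest at ZT04), 91.8 to 149 in prefrontal and 85.7 to 138 in visual cortex. Of 19 tested interneuron genes out of 24 listed, 11 were lower and 3 higher, against 8.98% and 4.00% of all rows, with a median of -1.25. VIP, a peptide of one interneuron class, had 0 to 0.238 FPKM in thalamus (0 in 7 of 12 libraries) and 15.0 to 71.2 in cortex (-5.73 ± 0.10, adjusted p = 1.35e-15). NPY had 0 to 0.823 FPKM in thalamus (median 0.31) and 14.6 to 67.2 FPKM in cortex (median 26.4) (-5.15 ± 0.15, adjusted p = 7.21e-13). CCK was listed at 0 in 8 of 12 thalamus libraries and reached 6.53 FPKM in the others, against 209 FPKM on average in prefrontal and 41.1 in visual cortex (-6.70 ± 0.30, adjusted p = 1.13e-10). Somatostatin (SST) had 2.35 to 44.9 FPKM in thalamus (median 5.27) and 45.2 to 288 FPKM in cortex (median 141) (-4.04 ± 0.30, adjusted p = 2.63e-08). DLX1 and DLX5, homeodomain factors of interneurons born in the ventral telencephalon, averaged 0.152 and 0.0401 FPKM in thalamus and 18.1 and 2.32 FPKM in cortex. VIP, NPY, DLX1 and DLX5 passed the filter through cortex alone, so their direction was largely set by it.

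The 3 members that were higher are peptides or calcium-binding proteins. Which cells of the thalamus made them was not tested. CALB1, calbindin, had 15.7 to 200.3 FPKM in thalamus (median 79.0) and 12.2 to 35.3 FPKM in cortex (median 25.03), overlapping at ZT04 alone (1.65 ± 0.23, adjusted p = 2.24e-05, higher in 11 of 12 pairs). Without ZT04 its difference was 1.87. CRH, corticotropin-releasing hormone, had 0.454 FPKM at ZT04 and 29.3 to 114 in the other thalamus libraries, against 1.88 to 9.81 in cortex (2.51 ± 0.45, adjusted p = 0.000253; 3.01 ± 0.19 without ZT04). PVALB, parvalbumin, ranged from 116 to 2259 FPKM among thalamus libraries, with means of 671 FPKM in thalamus, 95.5 in prefrontal and 434 in visual cortex. It was called against the mean of both areas (1.24 ± 0.34, adjusted p = 0.00695) and against prefrontal cortex, but its difference from visual cortex was 0.16 ± 0.36. The call was also lost in the signed-rank test (adjusted p = 0.0538) and with the log2 of the mean FPKM of both areas (0.85). The tachykinin TAC1 showed the ZT04 library most plainly, at 288 FPKM there and 0 to 2.64 FPKM in the other 11, against 28.7 to 106 FPKM in cortex. Its difference was -5.24 ± 0.62, adjusted p = 4.23e-06, and -5.94 ± 0.23 without ZT04. TAC3, which encodes neurokinin B, was lower in all 12 pairs at 0 to 2.40 FPKM in thalamus (median 0.352) and 20.1 to 85.3 FPKM in cortex (median 38.0) (-5.35 ± 0.25, adjusted p = 1.26e-10). RELN (0.38 ± 0.16) and CALB2 (0.69 ± 0.35) did not pass.

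**Figure D3:**
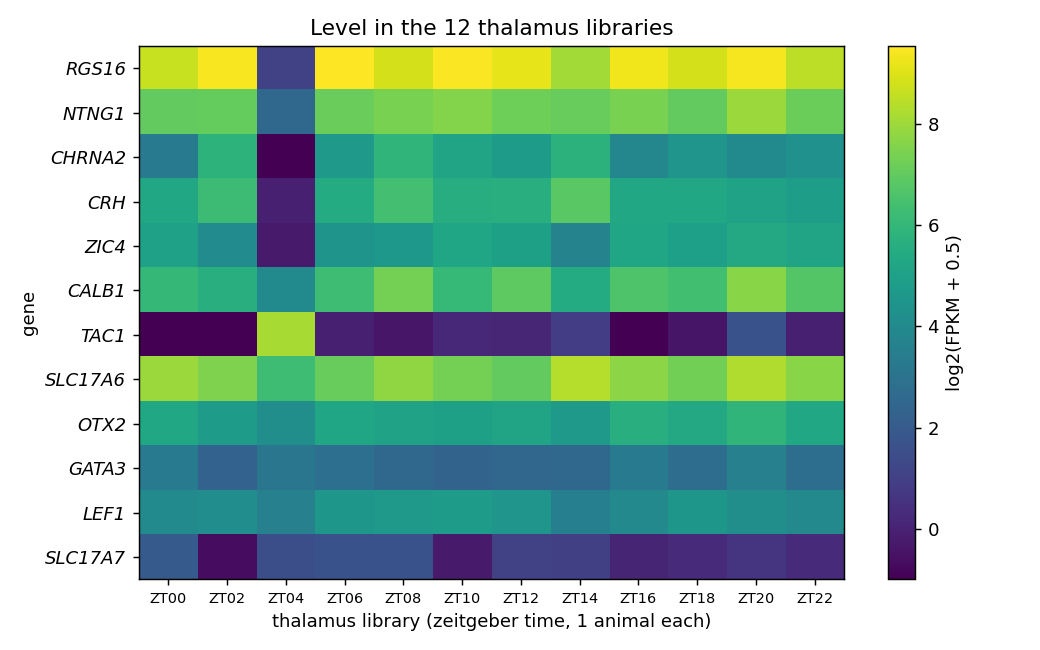
Level of 12 genes (rows) in the 12 thalamus libraries (columns, by zeitgeber time, 1 animal each), with colour as log2(FPKM + 0.5). ZT04 has the lowest RGS16, NTNG1, CHRNA2, CRH, ZIC4, CALB1, SLC17A6 and OTX2 and by far the highest TAC1, while its GATA3 and LEF1 lie within the range of the other libraries.

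Receptors for acetylcholine and the monoamines were higher or lower by subtype. Of 19 tested members out of 42 listed, 6 were higher and 8 lower, against 4.00% and 8.98% of all rows. The median difference was 0.07 (-0.34 without ZT04). The nicotinic subunit CHRNA4 had 7.14 to 50.1 FPKM in thalamus (median 28.3) and 0.694 to 14.005 FPKM in cortex (median 2.91) (2.82 ± 0.21, adjusted p = 2.26e-08). CHRNA2 was listed at 0 at ZT04 and had 9.97 to 59.1 FPKM in the other thalamus libraries, against 0 to 4.28 in cortex (3.54 ± 0.47, adjusted p = 1.57e-05; 4.06 ± 0.19 without ZT04). CHRNA3 was higher against the mean (1.43 ± 0.17) but not against visual cortex (0.44 ± 0.19). The muscarinic receptor CHRM1, which couples to Gq in pyramidal cells, stood at 0 to 0.461 FPKM in thalamus (median 0) and 1.12 to 42.9 FPKM in cortex (median 10.5), without overlap (-4.13 ± 0.16, adjusted p = 1.97e-11). CHRM1 passed the filter through cortex alone, so its direction was largely set by it. CHRM2, which couples to Gi, averaged 2.03 FPKM in thalamus, 0.463 in prefrontal and 1.35 in visual cortex and stayed below 2-fold (0.75 ± 0.23, adjusted p = 0.0126).

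Among serotonin receptors, HTR7 had 0.847 to 8.80 FPKM in thalamus (median 3.61) and 0 to 0.842 FPKM in cortex (median 0.329), without overlap (2.32 ± 0.25, adjusted p = 1.49e-06), and HTR2A had 0 to 1.28 FPKM in thalamus (median 0.296) and 2.32 to 19.1 FPKM in cortex (median 7.07), without overlap in the other direction (-3.13 ± 0.15, adjusted p = 1.51e-10). HTR7 passed the filter through thalamus alone and HTR2A through cortex alone, so their directions were largely set by it. HTR5A (-1.43 ± 0.19) and HTR1E (-1.47 ± 0.25) were lower. The histamine receptor HRH3 averaged 13.8 ± 6.75 FPKM in thalamus and 4.05 ± 2.39 FPKM in cortex (SD, with a difference of 1.63 ± 0.21, adjusted p = 9.88e-06), whereas HRH2 was lower (-1.34 ± 0.17). The alpha-1 adrenergic receptor ADRA1B was higher against the mean (1.60 ± 0.27) but not called against prefrontal cortex (0.56 ± 0.29), with means of 12.4 FPKM in thalamus and 7.96 FPKM there. DRD1 (-1.85 ± 0.20) was lower against each area, and ADRA2C (-1.56 ± 0.15) and CHRM4 (-1.18 ± 0.19) were lower against the mean and prefrontal cortex but not against visual cortex. HTR1B stood at 0.90 ± 0.27, and at 1.07 ± 0.23 without ZT04, where it was called.

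The fast glutamate receptors were lower in thalamus for 3 of the 4 AMPA subunits. GRIA2 had 12.1 to 30.6 FPKM in thalamus (median 17.9) and 40.6 to 81.2 FPKM in cortex (median 60.4) (-1.70 ± 0.10, adjusted p = 1.89e-09), and GRIA1 (-1.90 ± 0.25) and GRIA3 (-1.51 ± 0.08) were lower too. GRIA4, a subunit with fast gating, averaged 26.1 FPKM in thalamus, 12.7 in prefrontal and 13.4 in visual cortex; it was higher in 12 of 12 pairs at 0.97 ± 0.10, adjusted p = 6.28e-07, just below 2-fold, and it was called without ZT04 (1.02 ± 0.09) or without ZT22 (1.01). The NMDA subunit GRIN2A was lower (-1.53 ± 0.18) and so was GRIN2C (-1.42 ± 0.16, not called against visual cortex), while GRIN2B was at 0.74 ± 0.17, higher by adjusted p and below 2-fold. Among the metabotropic receptors GRM4, a presynaptic Gi-coupled one, was higher, with 3.97 to 26.9 FPKM in thalamus (median 16.1) and 1.44 to 6.75 FPKM in cortex (median 3.28) (1.97 ± 0.15, adjusted p = 3.97e-08). GRM3 was lower (-1.33 ± 0.11), and GRM5 (0.30 ± 0.17) did not pass. In all, 2 of 18 tested glutamate receptor genes were higher and 6 lower, against 4.00% and 8.98% of all rows, with a median of -0.68.

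Of 11 tested GABA-A receptor subunits 1 was higher and 3 were lower, against 4.00% and 8.98% of all rows, with a median of -0.35. GABRA5 averaged 85.2 FPKM in thalamus, 63.7 in prefrontal and 12.1 in visual cortex; it was called against the mean (1.53 ± 0.18, adjusted p = 3.79e-06) and against visual cortex, and was at 0.35 ± 0.20 against prefrontal cortex. GABRA2 had 2.59 to 8.41 FPKM in thalamus (median 6.59) and 11.5 to 29.6 FPKM in cortex (median 17.5), without overlap (-1.53 ± 0.10, adjusted p = 1.07e-08). GABRD, part of extrasynaptic receptors, was lower at -1.80 ± 0.29. GABRA3, which in rodents is the main alpha subunit of the reticular nucleus, lay between the cortex areas at 21.8 ± 3.53 FPKM in thalamus, 44.4 ± 7.59 in prefrontal and 8.44 ± 1.22 in visual cortex (SD, n = 12 each).

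The channels that set burst firing were split by subtype. CACNA1G, the T-type channel of relay neurons, had 1.82 to 16.3 FPKM in thalamus (median 6.62) and 0.451 to 7.92 FPKM in cortex (median 2.73), overlapping, and was higher in 11 of 12 pairs (1.15 ± 0.18, adjusted p = 8.85e-05); against prefrontal cortex alone it was at 0.58 ± 0.20. CACNA1I, another T-type channel, averaged 0.318 FPKM in thalamus, 1.94 in prefrontal and 1.08 in visual cortex and was lower against the mean (-1.24 ± 0.12, adjusted p = 5.57e-07) but not against visual cortex. HCN4, a slow pacemaker channel, averaged 3.54 ± 1.76 FPKM in thalamus and 1.24 ± 0.619 FPKM in cortex (SD; 1.21 ± 0.15, adjusted p = 8.46e-06), and was below 2-fold against prefrontal cortex (0.95). HCN3 and CACNA1H were under the filter. Of 23 tested voltage-gated potassium channel genes 2 were higher and 10 lower, beside 4.00% and 8.98% of all rows, with a median of -0.76. KCNH5 (1.74 ± 0.19, adjusted p = 1.88e-06) had 3.83 to 18.4 FPKM in thalamus (median 12.6) and 1.44 to 6.70 FPKM in cortex (median 3.12). KCNC2, a fast delayed rectifier, averaged 33.7 FPKM in thalamus, 15.5 in prefrontal and 12.4 in visual cortex and was just below 2-fold against prefrontal cortex (0.98). The KCNQ family, which carries the M-current, was unequal: KCNQ5 was lower at 0.383 to 12.2 FPKM in thalamus (median 2.59) and 15.6 to 57.8 FPKM in cortex (median 27.7) (-3.10 ± 0.25, adjusted p = 7.86e-08), and KCNQ3 was at 0.46 ± 0.14. KCNH3 (-2.99 ± 0.20), KCNV1 (-1.69 ± 0.19) and KCNH1 (-1.80 ± 0.15) were lower against each area.

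In calcium and G-protein signalling, the regulator RGS16 had the largest positive difference of any listed gene. It stood at 269 to 745 FPKM in 11 thalamus libraries (median 575), at 1.63 FPKM at ZT04, and at 0.709 to 4.93 FPKM in cortex (median 2.07). The ZT04 value lay within the cortex range and all others far above it. The difference was 6.98 ± 0.58, adjusted p = 9.57e-08, and 7.66 ± 0.09 without ZT04. RGS16 shortens signalling by Gi and Gq proteins, and its relative RGS8 was higher as well, at 7.13 to 28.6 FPKM in thalamus (median 20.9) and 0 to 6.98 FPKM in cortex (median 1.70) without overlap (3.11 ± 0.23, adjusted p = 3.12e-08). RGS4, in contrast, had 9.08 to 78.2 FPKM in thalamus (median 44.5) and 146 to 305 FPKM in cortex (median 222), without overlap in the other direction (-2.45 ± 0.25, adjusted p = 8.53e-07), and RGS14 was lower against prefrontal cortex (-3.79) but not against visual cortex (-0.44). Phospholipase PLCB4 averaged 24.5 FPKM in thalamus, 5.33 in prefrontal and 6.62 in visual cortex (1.89 ± 0.14, adjusted p = 2.05e-08). The calcium/calmodulin kinases diverged: CAMK2A had 33.0 to 326 FPKM in thalamus (median 194) and 410.0 to 1118 FPKM in cortex (median 681) (-1.94 ± 0.23, adjusted p = 4.01e-06), whereas CAMK2D had 21.4 to 90.0 FPKM in thalamus (median 62.8) and 8.21 to 26.3 FPKM in cortex (median 14.9) (1.88 ± 0.16, adjusted p = 1.37e-07). The groups did not overlap for CAMK2A and overlapped at ZT04 alone for CAMK2D. Without ZT04 the differences were -1.722 for CAMK2A and 1.996 for CAMK2D. The adenylyl cyclase ADCY2 was lower (-1.67 ± 0.12). NRGN, neurogranin of dendritic spines, was listed at 0 in 10 of 12 thalamus libraries with a maximum of 2.06 FPKM, against 5.82 to 328 FPKM in cortex (-6.27 ± 0.27, adjusted p = 4.84e-11). PDE2A (-3.85 ± 0.11), ITPR1 (-1.93 ± 0.10), PPP3CA (-1.84 ± 0.10) and NCALD (-2.60 ± 0.16) were lower without overlap. PRKCD, a kinase that marks relay neurons in mouse, was lower at 0.781 FPKM in thalamus, 6.27 in prefrontal and 0.5 in visual cortex (-1.07 ± 0.15; 0.31 ± 0.18 against visual cortex). It fell short of 2-fold with median-of-ratios scaling (-0.993), quantile scaling (-0.868) and a pseudocount of 1 (-0.915). Of 39 tested members of this list 8 were higher and 15 lower, against 4.00% and 8.98% of all rows, with a median of -0.61.

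Of 41 tested axon guidance and adhesion genes 4 were higher and 15 lower, where 4.00% and 8.98% of all rows were, and the median was -0.53 against -0.119. NTNG1, netrin-G1, which thalamocortical axons carry in mouse, stood at 5.24 FPKM at ZT04 and 127 to 245 FPKM in the other thalamus libraries, against 4.02 to 22.5 FPKM in cortex (3.49 ± 0.36, adjusted p = 1.04e-06; 3.90 ± 0.13 without ZT04). NTNG2 was the reverse, at 0 to 2.16 FPKM in thalamus (median 0.248) and 2.31 to 19.1 FPKM in cortex (median 6.43) (-3.003 ± 0.17, adjusted p = 9.33e-10). The postsynaptic partners of the netrin-G proteins, LRRC4C for NTNG1 and LRRC4 for NTNG2, were both lower (-1.42 ± 0.12 and -1.79 ± 0.12). Of the ephrin receptors EPHA6 was higher (1.38 ± 0.15) and EPHB6 lower (-3.21 ± 0.13), while EPHA3 (0.48 ± 0.34), EPHA4 (0.17 ± 0.26) and EPHA7 (-0.40 ± 0.23) did not pass. CNTN4, a contactin, was higher (1.48 ± 0.21), and SEMA3E was higher against the mean (1.16 ± 0.16) but not against visual cortex. PCDH8, an activity-regulated protocadherin, had 0.0679 to 3.30 FPKM in thalamus (median 0.501) and 6.38 to 34.2 FPKM in cortex (median 18.2) (-4.19 ± 0.19, adjusted p = 9.29e-11), and the repellents SLIT2 (-2.27 ± 0.20) and SEMA3A (-1.83 ± 0.14) and the cadherins CDH9 (-1.82 ± 0.19) and CDH13 (-2.69 ± 0.20) were lower too.

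**Figure D4:**
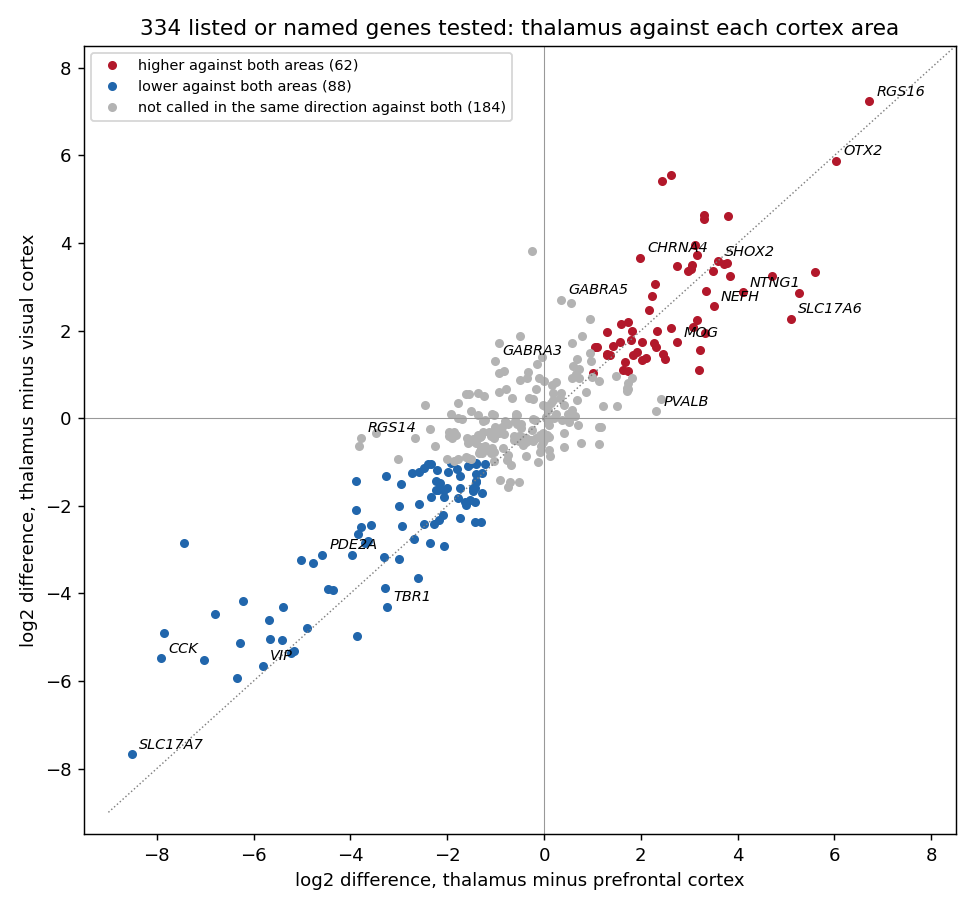
Difference of 334 listed or rule-named genes on the log2(FPKM + 0.5) scale, thalamus minus prefrontal cortex (horizontal) and thalamus minus visual cortex (vertical), with the dotted line where both are equal; the axes share the thalamus libraries. Red genes (62) were called higher and blue genes (88) lower against the mean and against each area, and GABRA5, GABRA3, PVALB and RGS14 are among the grey ones, far from the dotted line.

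The 3 neurofilament chains, which set the calibre of long axons, were higher in thalamus. NEFM had 325 to 3865 FPKM in thalamus (median 803) and 61.7 to 203 FPKM in cortex (median 132) (2.70 ± 0.25, adjusted p = 3.08e-07), and NEFH had 83.6 to 731 FPKM in thalamus (median 189) and 12.3 to 50.9 FPKM in cortex (median 24.9) (3.03 ± 0.21, adjusted p = 1.28e-08), both without overlap. NEFL was higher too (1.36 ± 0.17), and INA, an internexin, was not (0.27 ± 0.15). SPP1, osteopontin, had 384 to 1185 FPKM in thalamus (median 653) and 82.1 to 287 FPKM in cortex (median 155), without overlap (1.96 ± 0.12, adjusted p = 3.54e-09). GAP43 and SCN4B, a sodium channel beta subunit, were higher against the mean (1.61 ± 0.14 and 1.20 ± 0.16), though GAP43 was not called against prefrontal nor SCN4B against visual cortex. In all 6 of 12 tested members were higher and 0 lower, against 4.00% and 8.98% of all rows, with a median of 1.01. The summed level of 5 pan-neuronal markers overlapped, at 1104 to 3287 FPKM in thalamus, 994 to 1666 in prefrontal and 1234 to 1867 in visual cortex. Its members split, STMN2 (0.82 ± 0.10) and NEFL being higher by adjusted p and SNAP25 (-0.86 ± 0.14) and RBFOX3 (-4.14 ± 0.19) lower by it.

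Myelin genes were higher in thalamus almost throughout. Of 18 tested members out of 22 listed 17 were called higher, 14 of them against each area, where 4.00% and 2.72% of all rows were. The median difference was 1.70. MOG, on the surface of the myelin sheath, had 56.0 to 171 FPKM in thalamus (median 104) and 7.38 to 49.0 FPKM in cortex (median 27.2), without overlap (2.24 ± 0.14, adjusted p = 5.68e-09). TF, the iron carrier made by oligodendrocytes, had 114 to 392 FPKM in thalamus (median 259.6) and 16.8 to 66.4 FPKM in cortex (median 44.6), without overlap (2.59 ± 0.16, adjusted p = 2.68e-09). MOBP (2.63 ± 0.19), ERMN (2.39 ± 0.16), MAG (1.97 ± 0.22), UGT8 (1.92 ± 0.12) and FA2H (1.99 ± 0.15), the last pair being enzymes of myelin lipid synthesis, were higher in 12 of 12 pairs. SOX10, the lineage factor, averaged 3.68 FPKM in thalamus, 3.06 in prefrontal and 0.742 in visual cortex and stayed below 2-fold (0.68 ± 0.25, adjusted p = 0.032). The summed level of 5 of 6 oligodendrocyte markers was 532 to 2894 FPKM in thalamus (median 1471, the highest at ZT04), 175 to 582 in prefrontal and 313 to 810 in visual cortex. That sum differs between the regions beside every neuronal gene group described here, and its part in those differences was not tested. Precursor markers overlapped, with 12.5 to 34.4 FPKM in thalamus, 16.8 to 42.0 in prefrontal and 12.0 to 31.9 in visual cortex, and 0 of 2 tested were called.

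Astrocyte genes were lower or not called, with 1 exception. Of 18 tested members 5 were lower and 1 was higher, against 8.98% and 4.00% of all rows, with a median of -0.53. The glutamate transporter SLC1A3 had 95.8 to 276 FPKM in thalamus (median 159) and 358 to 748 FPKM in cortex (median 471), without overlap (-1.57 ± 0.15, adjusted p = 3.18e-07). SLC1A2 had 3.82 to 101 FPKM in thalamus (median 13.4) and 24.4 to 120.3 FPKM in cortex (median 61.2) (-2.07 ± 0.28, adjusted p = 1.86e-05), and its highest thalamus value was at ZT04. GFAP averaged 53.8 ± 33.2 FPKM in thalamus, 207 ± 97.1 in prefrontal and 83.1 ± 82.0 in visual cortex (SD, n = 12 each), and was called against the mean (-1.14 ± 0.28, adjusted p = 0.00292) but not without ZT02 (-0.999), and not against visual cortex (-0.30 ± 0.35). SLC6A11, the GABA transporter GAT-3, was the member that was higher, at 37.2 to 115 FPKM in thalamus (median 44.1) and 8.07 to 31.1 FPKM in cortex (median 17.98), without overlap (1.63 ± 0.16, adjusted p = 4.83e-07). AQP4, the water channel of astrocyte endfeet, was below 2-fold with all pairs (-0.88 ± 0.22) and past it without ZT04 (-1.02). Summed astrocyte markers ran from 113 to 550 FPKM in thalamus (the highest at ZT04), 325 to 887 in prefrontal and 243 to 807 in visual cortex. Microglial markers summed to 18.9 to 60.2 FPKM in thalamus, 54.4 to 89.4 in prefrontal and 24.6 to 63.6 in visual cortex. Of 5 tested microglial and 4 endothelial markers 0 were called, where 4.00% of all rows were higher and 8.98% lower. By adjusted p alone 3 microglial markers were lower and 2 endothelial markers higher. Without ZT04, 1 microglial marker was called lower. All 5 microglial markers were higher in prefrontal than in visual cortex, by 0.669 (P2RY12) to 2.115 (CSF1R), so the mean of both areas joins unlike levels. The summed habenula markers reached 5.60 FPKM in thalamus, 2.64 in prefrontal and 5.92 in visual cortex. Ependymal markers reached 7.31, 7.55 and 5.65 FPKM in the same order. Hypothalamus markers reached 5.10 FPKM in thalamus (at ZT04), 2.29 in prefrontal and 1.45 in visual cortex, with HCRT, AVP and AGRP at 0 in all thalamus libraries. Pineal markers reached 8.85 FPKM in thalamus, 0.913 in prefrontal and 0.642 in visual cortex. The 1 tested hypothalamus marker, PMCH, which encodes melanin-concentrating hormone, was higher in thalamus (1.53 ± 0.31), at 1.70 FPKM in thalamus, 0.149 in prefrontal and 0.0552 in visual cortex, and so was CHRNA3, 1 of 2 tested habenula markers. Markers of striatal medium spiny neurons summed to 32.5 to 54.9 FPKM in thalamus, 46.1 to 139.7 in prefrontal and 34.6 to 106.4 in visual cortex, and of 3 tested DRD1 was lower. Of the 5 cortical excitatory markers with a row, NEUROD2 and EMX1 were at 0 in every thalamus library and the sum was 1.30 to 6.02 FPKM, against 536 to 787 in prefrontal and 295 to 473 in visual cortex. Red cell markers reached 48.9 FPKM in thalamus, 37.8 in prefrontal and 49.9 in visual cortex. The visual cortex library of ZT02 stood apart from its region in these markers, with a median over them of 24.96 FPKM against 1.16 FPKM for the region, and without that time 512 rows were higher and 1187 lower.

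Outside the lists, the text names the 15 genes with the largest and the 15 with the smallest difference among called rows that reached 5 FPKM in the higher region and had the same sign in 12 of 12 pairs against each area; 173 higher and 318 lower rows met those terms. On the higher side, after OTX2, came SYNDIG1L, a relative of a synapse organiser of AMPA receptors, with 27.7 to 189.8 FPKM in thalamus (median 139.7) and 2.27 to 14.004 FPKM in cortex (median 6.39) (4.21 ± 0.22, adjusted p = 5.69e-10). MRAP2, which assists melanocortin receptors, had 17.2 to 70.4 FPKM in thalamus (median 41.4) and 0.495 to 7.503 FPKM in cortex (median 1.93) (3.97 ± 0.18, adjusted p = 1.27e-10), and the peptide neurotensin (NTS) had 4.33 to 148 FPKM in thalamus (median 35.99) and 0 to 17.5 FPKM in cortex (median 0.791) (3.92 ± 0.28, adjusted p = 1.5e-08). SHOX2, a homeodomain factor of a subset of thalamic neurons in mouse, had 2.01 to 13.6 FPKM in thalamus (median 5.51) and was listed at 0 in all 24 cortex libraries. RPE65, the retinoid isomerase known from the retinal pigment epithelium, had 5.50 to 23.6 FPKM in thalamus (median 11.1) and 0 to 1.65 FPKM in cortex (median 0.495) (3.44 ± 0.20, adjusted p = 1.55e-09). GJB1, a gap junction protein of oligodendrocytes, and TSPAN2, a tetraspanin of the same cells, were higher at 3.12 ± 0.23 and 3.28 ± 0.16. SYT9, a synaptotagmin (3.16 ± 0.24), TTC39A (3.66 ± 0.19), CLMN (3.54 ± 0.17), RD3L (3.43 ± 0.28) and UGT3A2 (3.22 ± 0.23) completed the set with SLC17A6 and GATA3. Without the ZT04 pair the same terms put RGS16 first and brought in PCP4, GNG13, SMPX, CPNE7 and CHRNA2, genes whose lowest thalamus value was that of ZT04. PCP4, a calmodulin regulator, had 156 FPKM at ZT04 and 4008 to 7367 in the other 11, against 51.4 to 665 in cortex (4.88 ± 0.10 without ZT04).

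On the lower side, the terms named SLC17A7, CCK, NRGN, VIP, TAC3, NPY and DLX1, given above, together with 8 others. SLC30A3, the zinc transporter of cortical synaptic vesicles, had 0 to 3.51 FPKM in thalamus (median 0.123) and 5.02 to 103 FPKM in cortex (median 27.7) (-5.20 ± 0.24, adjusted p = 1.19e-10). DDN, dendrin of dendrites and spines, had 1.34 to 4.79 FPKM in thalamus (median 2.34) and 74.0 to 351 FPKM in cortex (median 135) (-5.71 ± 0.17, adjusted p = 7.03e-13), and NGEF, an ephrin-linked exchange factor, had 0.148 to 2.63 FPKM in thalamus (median 0.464) and 17.2 to 79.1 FPKM in cortex (median 46.6) (-5.25 ± 0.18, adjusted p = 2.71e-12). TESPA1 was listed at 0 in 9 of 12 thalamus libraries and had 12.1 to 58.4 FPKM in cortex (-6.14 ± 0.11, adjusted p = 1.35e-15). NOV, a secreted matrix protein, had 0.17 to 4.00 FPKM in thalamus (median 1.11) and 3.03 to 674 FPKM in cortex (median 224) (-6.38 ± 0.36, adjusted p = 1.32e-09), and TMEM155 had 0 to 1.34 FPKM in thalamus (median 0.901) and 24.9 to 103 FPKM in cortex (median 48.5) (-5.29 ± 0.18, adjusted p = 3.16e-12). OGN and LUM are small proteoglycans of connective tissue. They averaged 1.90 and 0.483 FPKM in thalamus, 260.3 and 42.3 FPKM in prefrontal and 103 and 24.4 FPKM in visual cortex (-5.63 ± 0.39 and -4.86 ± 0.25), with a cortex range of 1.47 to 606 FPKM for OGN.

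Immediate early genes, transcribed within minutes of neuronal activity, were lower in thalamus for 11 of 16 tested members and higher for 1. Of all rows 8.98% were lower and 4.00% higher. The median of the list was -1.48. EGR1 had 7.17 to 19.4 FPKM in thalamus (median 11.9) and 24.1 to 111 FPKM in cortex (median 50.5), without overlap (-2.01 ± 0.14, adjusted p = 1.18e-08). HOMER1 had 7.18 to 15.4 FPKM in thalamus (median 9.61) and 18.1 to 55.7 FPKM in cortex (median 30.7), also without overlap (-1.68 ± 0.07, adjusted p = 4.07e-11). FOSB (-2.25 ± 0.16), ARC (-1.92 ± 0.29), NR4A1 (-1.98 ± 0.20), EGR3 (-2.24 ± 0.22) and BDNF (-1.73 ± 0.21) were lower against each area. FOS was at -0.90 ± 0.20, adjusted p = 0.00132, below 2-fold (-1.05 without ZT14, where it was called), and JUN (-0.40 ± 0.19) and DUSP1 (0.11 ± 0.12) did not pass. NPTX2, a pentraxin of excitatory synapses, was the member that was higher (1.34 ± 0.24, adjusted p = 0.000219), and it was below 2-fold against prefrontal cortex (0.79).

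Core clock genes were present in thalamus. Of 18 tested members 1 was called higher and 2 lower than in cortex, near the 4.00% and 8.98% of all rows. By adjusted p alone 12 of the 18 were lower and 1 was higher, where 32.3% and 18.7% of all rows were. HLF (-1.22 ± 0.14) and TEF (-1.10 ± 0.12), output factors of the clock, were lower, TEF not with quantile scaling (-0.966), and RORA was higher. Against visual cortex HLF (-0.927) and TEF (-0.377) were not called. The median was -0.49 against -0.119 over all rows, and none of the 3 called genes was called against each area. A 24 h rhythm was tested by a cosine and a sine term over the 12 times. In thalamus 0 of 11939 rows were called (0%), with 2229 (18.7%) at an unadjusted p under 0.05 and a smallest adjusted p of 0.197. Without the library of ZT02 the count was 508. Of the 18 clock genes 3 had an unadjusted p under 0.05, no larger a share than over all rows, and their values are given as a description. PER1, a light-responsive repressor, was lowest at ZT16 with 0.685 FPKM and highest at ZT02 with 8.67 FPKM, and its fitted peak was at ZT4.8 with a log2 amplitude of 0.88 ± 0.20 (SE) and an adjusted p of 0.204. DBP was also highest at ZT02, at 53.1 FPKM, against 9.04 FPKM at ZT14 (amplitude 0.63 ± 0.18, adjusted p = 0.205). ARNTL, an activator in the core loop of the clock, was lowest at ZT04 with 13.1 FPKM and at 25.7 FPKM at ZT12 (peak ZT12.6, amplitude 0.36 ± 0.10, adjusted p = 0.204). These 3 fits include ZT04, the library that stood apart from the other thalamus libraries.

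The difference between thalamus and cortex was tested for a 24 h rhythm in the same way. Of 12994 rows 0 were called (0%), with 1316 (10.1%) at an unadjusted p under 0.05 and a smallest adjusted p of 0.163. Among clock genes PER2 had the largest amplitude, 0.81 ± 0.14 (adjusted p = 0.163). Its thalamus level ran from 2.13 to 6.51 FPKM (median 4.20), with the highest value at ZT20. In prefrontal cortex it ran from 2.91 to 10.1 FPKM and in visual cortex from 2.63 to 11.1 FPKM, with the highest values at ZT06 and ZT04. At ZT04 the thalamus stood at 3.12 FPKM against 8.48 and 11.1 in the cortex areas, and at ZT20 at 6.51 FPKM against 3.22 and 4.12. The thalamus library of ZT04 is the one that stood apart, and the PER2 fit includes it. PER2 and BHLHE40 were the 2 of 18 clock genes with an unadjusted p under 0.05, about the share over all rows (BHLHE40 amplitude 0.51 ± 0.18, adjusted p = 0.472).

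**Figure D5:**
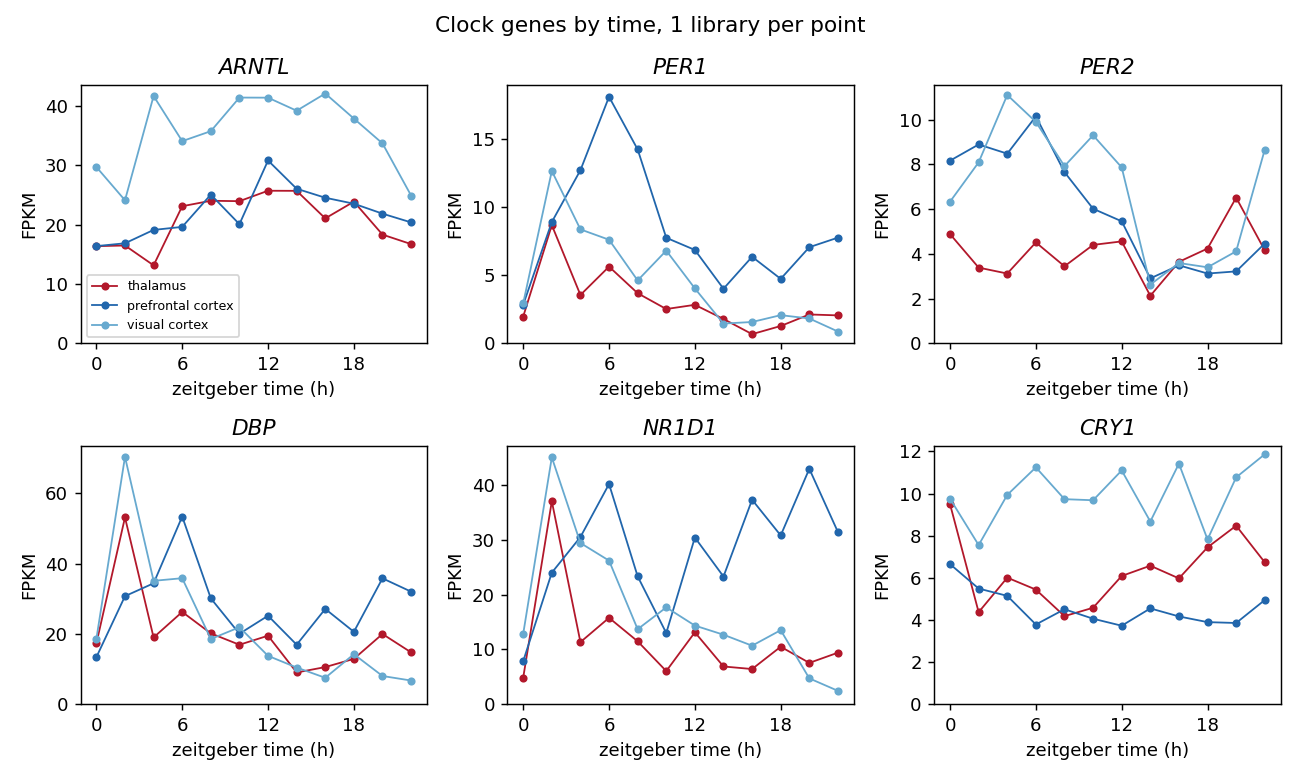
FPKM of 6 clock genes by zeitgeber time in thalamus (red), prefrontal cortex (dark blue) and visual cortex (light blue), each point 1 library of 1 animal. PER1 and DBP are highest in thalamus at ZT02, and PER2 in thalamus lies above both cortex areas at ZT16, ZT18 and ZT20 and below both at the other times.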

How the data were processed

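Expression came as 1 deposited table of FPKM, computed by the authors, with 29202 rows and 767 libraries. Libraries were made with a stranded polyA kit, per the labels' protocols. STAR, featureCounts and DESeq2 were used per the submitters' processing notes. Which tool did what, their versions, the genome build and the strand setting are not given in the sources. Values were whole multiples of 1 read within 0.01 read (100% of values above 0), which gave the reads per library. The value of 1 read times the total reads varied 3.54-fold over the 36 libraries, so FPKM were not scaled by total reads. The 707 columns of 59 other tissues were not used, and habenula and pons served for levels and correlations only.

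Rows with a mean of at least 1 FPKM in thalamus or over the 24 cortex libraries (12994) were tested on log2(FPKM + 0.5), thalamus minus the mean of both areas at the same time, with limma 3.58.1 in R 4.3.3 (variance trend on the mean level). The pairing comes from the labels, 1 animal per time; deviations from the region means of thalamus and cortex correlated at 0.121 to 0.602 within times, and 9 of 12 thalamus libraries correlated best with their own time. The 24 h test fitted a cosine and a sine term. The fits were tested on simulated data. Members, gene lists and tests were chosen with earlier results of these data known. Named genes were list members and, outside the lists, the 15 largest and 15 smallest differences among called rows with at least 5 FPKM in the higher region and the same sign in 12 of 12 pairs against each area. Alternatives were the pseudocount, filter, scaling, pairing, single areas, a signed-rank test and leaving out each time. Rows were matched by the table's own symbols, and some family members share reads with near copies. Reads of overlapping or antisense genes may not be separated. Values of some list members are not reported here. Python 3.11.15 was used for summaries and figures.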

Additional observations from a re-analysis of the deposited data

Results flagged for a closer look

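GABRA3, a GABA-A receptor subunit, was called in opposite directions against the 2 cortex areas. The difference of thalamus on the log2 scale was -1.01 from prefrontal cortex and 1.32 from visual cortex. The difference between the areas on the same pairs, where the thalamus value cancels, was 2.32 ± 0.09 (SE), prefrontal minus visual. The prefrontal level was higher in 12 of 12 animals. GABRA3 was picked by its opposite calls, which fix a difference between the areas in advance, so these values are a description and not a separate test. GABRA3 was the 1 gene of 334 listed or named genes called in opposite directions, and 60 of 12994 rows were.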

How the results depend on the processing

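Counts of rows called depended most on the cortex area. Against prefrontal cortex alone 2408 rows were lower, and against visual cortex alone 913 were higher. With a filter of 5 FPKM fewer rows were tested, and 364 of 8124 were higher and 701 lower. All of these were also called with the filter of 1 FPKM. Asking also for a call against each area, an alternative chosen after seeing the data, left 634 lower. The share higher among called rows was 42.5% with quantile scaling. Pseudocounts of 0.1 and 1 gave 653 and 416 higher and 1508 and 904 lower rows. The signed-rank test gave 511 and 1142, and the log2 of the mean FPKM of both areas 466 and 1524. Leaving out 1 time gave 509 to 540 higher and 1107 to 1255 lower rows, and leaving out ZT00, ZT02 and ZT04 together, also chosen after seeing the data, 512 and 1346. Without the replicate block (no pairing by animal) 523 rows were higher and 1156 lower, 519 and 1156 of them shared with the paired fit. In thalamus the 24 h test called 508 rows without ZT02 and 0 to 508 over all times left out in turn. Of 4507 values of 182 named genes under the alternatives, 4426 kept their direction and their side of the threshold, 39 lost a call, 30 gained one and 12 changed sign, none of them in a setting that kept the log2 mean of both areas. Changing the filter, the pairing or the test left each difference as it was, so there only the adjusted p could move a call. The fit without ZT02 was entered again as the fit without the time noted for red cell markers, so its values count more than once. Against prefrontal cortex alone BHLHE40 was at 0.10, CALB2 at -0.49, GABRA3 at -1.01, SOX10 at -0.043 and ZIC1 at -0.92. Against visual cortex alone DBP was at 0.075, EPHA3 at -0.20, INA at -0.15, JUN at 0.57 and PRKCD at 0.31. With the log2 of the mean FPKM, GABRA3 was at -0.27 and ZIC1 at -0.17. With a pseudocount of 1, calls of CACNA1I, CHRM4, HCN4, HTR5A and NEUROD2 were below 2-fold. The cause was not tested. Leaving out samples whose labels carry the suffix for an approximate time was not run, since none of the 36 libraries has it. With 1.15 M reads outside mitochondrial genes in the shallowest thalamus library, absence cannot be told from a low level for genes listed at 0, and 1 animal per time limits every rhythm test.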

Other observations

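Some genes outside the lists were higher in 11 thalamus libraries than at ZT04, where they lay within the cortex range. SMPX, a small muscle-type protein, had 3.79 FPKM at ZT04 and 42.7 to 84.1 FPKM in the other thalamus libraries, against 0.391 to 16.8 FPKM in cortex (4.36 ± 0.12 on the log2 scale without ZT04, limma). GNG13, a G-protein gamma subunit, had 9.43 FPKM at ZT04 and 19.1 to 201 FPKM in the others, against 0 to 20.4 FPKM in cortex (4.40 ± 0.25). CPNE7, a copine that binds membranes with calcium, had 3.81 FPKM at ZT04 and 17.2 to 148 FPKM in the others, against 0 to 15.0 FPKM in cortex (4.22 ± 0.17).

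Of the 531 rows called higher without ZT04, 530 also passed the filter on low values with all pairs. Among these the difference at ZT04 was positive in 404, and in 509 to 526 at each other time. Of the 1255 called lower, 1254 also passed it, and the difference at ZT04 was negative in 1036, and in 1201 to 1247 at each other time. The other times entered the choice of these rows and ZT04 did not.

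Some thalamus genes were also high in the habenula, where the levels are given without a comparison. OTX2 averaged 39.9 FPKM in the habenula and 2.79 FPKM in the pons, and RGS16 averaged 177 and 1.59 FPKM there.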
